A study of Mus musculus with 36 samples.

Results

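The comparison described here set 3 libraries headed as deprived of methionine with CRE against 3 libraries headed as basal with CRE, 6 of the 36 libraries of the series. Its members were chosen by the headings of their columns in the deposited table of fibroblast values, and all 32266 genes of that table were read. The cells were mouse embryonic fibroblasts (MEFs), connective tissue cells grown from embryos, of a line named MEF Vps15f/f, in which the gene for Vps15 can be removed by CRE recombinase. By the labels, cells given an adenovirus with CRE are Vps15KO (knockout) and cells given an adenovirus with GFP are WT (wild type), and all 6 libraries compared here carry the CRE heading. Basal cells were kept in high glucose DMEM without FBS (serum), and deprived cells in methionine-free DMEM for 4 h. The same line under the GFP heading and, under both headings, cells given methionine again for 1 h or 4 h after the 4 h of deprivation filled the other 6 fibroblast groups, with 3 libraries in each of the 8 groups. The 12 liver libraries of the series entered no comparison. The labels name 1 line and number the replicates without saying that they were separate cultures. P-values therefore measure only the spread between these libraries, which may be technical.

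The headings may be displaced against the libraries, so each result has 2 readings. Read by heading, the 6 columns show what 4 h without methionine did to Vps15KO cells. The other reading follows the numbers in the names of the libraries, which place the genotypes side by side within each medium, and supposes that the columns stand in the order of those numbers. Read by column order, the 3 columns headed basal CRE (13 to 15) are WT cells and the 3 columns headed deprived CRE (16 to 18) are Vps15KO cells, both after 4 h of deprivation and 1 h of methionine. The same differences are then knockout minus wild type in 1 medium. By column order, deprived minus basal under GFP becomes knockout minus wild type in basal medium. In the same way 4 h minus 1 h becomes knockout minus wild type after 4 h of deprivation under GFP, and knockout minus wild type after 4 h of methionine under CRE. Below, "basal", "deprived", "1 h" and "4 h" name headings, every value belongs to the named columns under either reading, and no choice between the readings is made.

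Vps15, encoded by Pik3r4, is the scaffold that regulates the class 3 phosphoinositide 3-kinase, whose catalytic subunit Vps34 (Pik3c3) makes the lipid PI3P on endosomes and forming autophagosomes. Becn1 with Atg14 directs the complex to autophagy, and Becn1 with Uvrag to endosomes. Methionine is the precursor of S-adenosylmethionine (SAM), the methyl donor of the cell. When an amino acid is short, the kinase Gcn2 raises translation of the transcription factor Atf4, which induces genes of amino acid uptake and synthesis. Interferon-stimulated genes are induced through sensors of foreign or misplaced nucleic acid and through the interferon receptor.

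Depth was even, with totals of 19345029 to 21245006 recovered counts over the 24 fibroblast libraries. The basal CRE libraries had 21230 to 21296 genes detected, 4.51 to 4.67% of counts in their 10 most abundant genes and 1.54 to 1.74% in mitochondrial genes. The deprived CRE libraries had 21648 to 21782 genes detected, 3.97 to 4.01% and 1.44 to 1.48%. These shares moved with the groups, and their part in the results was not tested. CRE library 3 at 4 h stood apart, with 0.653% of counts in mitochondrial genes against 1.64 and 1.65% in the other 2 libraries of its group. It enters the main comparison only through the estimate of spread, which all 24 libraries share.

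Of the 13914 genes tested, 3963 (28.5%) differed at an adjusted p under 0.05, 2091 (15.0%) of them higher under the deprived heading and 1872 (13.5%) lower. Without CRE library 3 at 4 h the count was 4467. Values are log2 after the authors' variance stabilization, and a difference is deprived minus basal with its standard error from limma, fitted over all 24 libraries. The 3 libraries of 1 group lay wholly above those of the other for 6261 genes (45.0%), 3243 (23.3%) with deprived higher and 3018 (21.7%) with deprived lower. The median difference over all tested genes was 0.002.

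The gene of the deleted subunit is given first. Pik3r4 (chromosome 9, 105642995 to 105687655 on GRCm38.p6) stood at 10.15, 10.13 and 10.12 in basal libraries 1 to 3 and at 9.74, 9.90 and 9.92 in deprived libraries 1 to 3. The groups did not overlap, and the difference was -0.28 ± 0.05 (adjusted p = 9.82e-05). The value covers the whole gene and does not show which exons were read, so a deletion that leaves the rest of the transcript is not measured by it. Read by heading, the transcript was lower after deprivation among knockout cells, and read by column order it was lower in knockout than in wild type cells. Over the other columns it averaged 9.91 (basal), 9.64 (deprived), 9.90 (1 h) and 9.73 (4 h) under GFP and 10.05 (1 h) and 9.78 (4 h) under CRE. The basal CRE mean, 10.13, was the highest of the 8, and the deprived CRE mean, 9.86, was above 3 of the GFP and CRE means.

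Among the 9 measured genes of the complex and its regulators 2 (22.2%) were higher and 1 (11.1%) was lower. Over all tested genes the shares were 15.0% and 13.5%, so no shift of this short list is read from the counts. Uvrag, the endosomal adaptor, stood at 10.20, 10.23 and 10.22 in basal and 10.66, 10.67 and 10.61 in deprived libraries (0.43 ± 0.04, adjusted p = 4.46e-09). Atg14, the autophagy adaptor, differed by 0.35 ± 0.06 (adjusted p = 1.20e-05). The catalytic subunit Pik3c3 overlapped between the groups, with 10.20, 10.07 and 10.25 against 10.02, 10.05 and 10.10 (-0.12 ± 0.05, adjusted p = 0.0729), and Becn1 missed the threshold at 0.07 ± 0.05 (adjusted p = 0.298). Both adaptors were thus higher and Pik3r4 lower in the same columns, while Pik3c3 and Becn1 did not pass the main test. The other members, Rubcn (-0.03), Nrbf2 (0.07), Ambra1 (0.05) and Rubcnl (-0.21), did not pass it either.

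Of 44 genes of PI3P effectors and endosomal sorting, 21 were higher and 4 lower, with a median difference of 0.10. Vps37b, a subunit of the ESCRT-I sorting complex, was at 10.90 in each basal library and at 11.54, 11.53 and 11.53 in the deprived libraries (0.63 ± 0.04, adjusted p = 3.53e-15). The early endosome tether Eea1 differed by 0.47 ± 0.07, the retromer subunits Vps26a and Vps35 by 0.37 ± 0.04 and 0.23 ± 0.03, and Vac14, a scaffold of the kinase that converts PI3P, by 0.31 ± 0.04. Wipi1, a PI3P reader at forming autophagosomes, was lower, at 9.68, 9.64 and 9.66 against 9.34, 9.37 and 9.37 (-0.30 ± 0.05, adjusted p = 2.70e-05). The 21 are 47.7% of the list and the 4 are 9.09%, against 15.0% and 13.5% of all genes.

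Of 57 lysosomal genes 33 (57.9%) were higher and 2 (3.51%) lower, with a median of 0.18, against 15.0% and 13.5% of all tested genes. Fnip2, a folliculin partner in lysosomal nutrient signalling, stood at 10.36, 10.32 and 10.27 in basal and 11.10, 11.20 and 11.15 in deprived libraries (0.83 ± 0.05, adjusted p = 8.88e-15). Subunits of the proton pump that acidifies lysosomes were among the clearest: Atp6v0b differed by 0.53 ± 0.04, Atp6v1b2 by 0.51 ± 0.04, Atp6ap2 by 0.50 ± 0.04 and Atp6v1c1 by 0.49 ± 0.04. The membrane protein Lamp1 differed by 0.34 ± 0.03. Of 38 autophagy genes 11 (28.9%) were higher and 2 (5.26%) lower, with a median of 0.08. The 2 lower became 1 without basal library 1 or 2 or deprived library 1 or 2. Sqstm1, the cargo receptor p62, stood at 15.15, 15.22 and 15.21 in basal and 15.62, 15.67 and 15.70 in deprived libraries (0.47 ± 0.03, adjusted p = 6.25e-13), with no overlap. The related receptor Nbr1 differed by 0.27 ± 0.04 and the conjugation enzymes Atg3 and Atg7 by 0.28 ± 0.05 and 0.29 ± 0.06, while the initiating kinase Ulk1 stood at -0.05 ± 0.05 (adjusted p = 0.449).

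**Figure D1:**
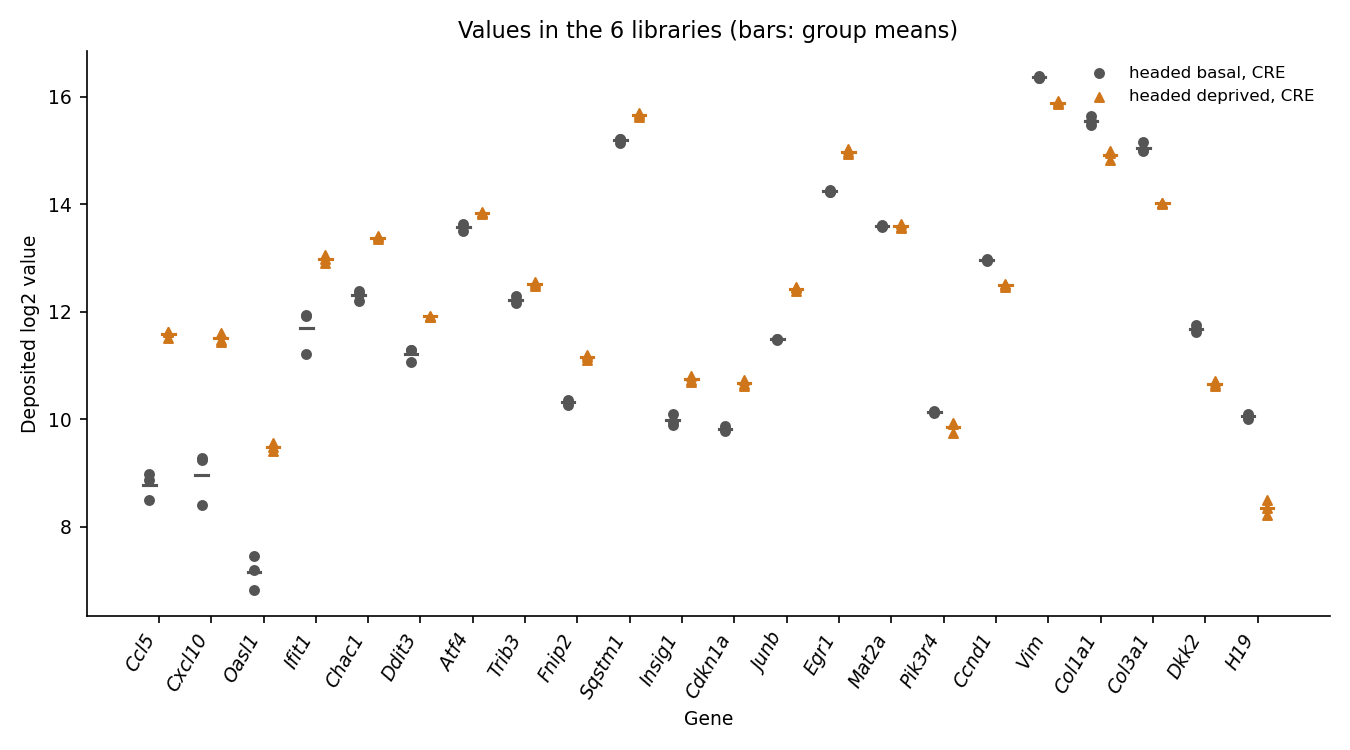
Deposited log2 value (vertical axis) of 22 genes in the 3 libraries headed basal (circles) and the 3 headed deprived (triangles) under CRE, with a bar at each group mean. Ccl5, Cxcl10 and Oasl1 lie 2.32 to 2.81 higher in the deprived libraries, Mat2a overlaps between the groups, and H19 lies lowest of the falling genes in the deprived libraries.

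The largest differences of all were in genes of the interferon response and its chemokines. The chemokine Ccl5 stood at 8.49, 8.98 and 8.87 in basal libraries 1 to 3 and at 11.51, 11.63 and 11.62 in deprived libraries 1 to 3 (2.81 ± 0.11, adjusted p = 6.97e-13). Cxcl10, which attracts T cells, was at 8.40, 9.27 and 9.23 against 11.61, 11.44 and 11.47 (2.54 ± 0.15, adjusted p = 9.52e-10). Oasl1, a member of the oligoadenylate synthetase family, was at 6.81, 7.20 and 7.46 against 9.47, 9.42 and 9.56 (2.32 ± 0.14, adjusted p = 2.67e-11). In each of these genes the 3 deprived libraries lay close together and basal library 1 was the lowest.

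Of 43 interferon-stimulated genes tested, 38 (88.4%) were higher and 0 lower, with a median of 0.62, against 15.0% and 13.5% of all tested genes. The groups did not overlap, with deprived higher, in 40 of the 43, against 23.3% of all tested genes. At an unadjusted p under 0.05 limma gave 0 lower, and edgeR and DESeq2 called 0 lower. The antiviral enzyme Rsad2 (viperin) differed by 1.95 ± 0.14 and the RNA sensor Ifih1 by 1.11 ± 0.09. Ifit1, which binds foreign RNA ends, stood at 11.22, 11.95 and 11.92 in basal and 12.98, 12.91 and 13.06 in deprived libraries (1.29 ± 0.15, adjusted p = 4.17e-06). Mx2, a dynamin-like restriction factor, differed by 1.45 ± 0.14 and Zbp1, a sensor of Z-form nucleic acid, by 1.29 ± 0.19. Oas2 missed the threshold (0.54 ± 0.20, adjusted p = 0.0522). Oas3 (1.43 ± 0.17), Ifi207 (1.62 ± 0.09) and the class I antigen-presenting gene H2-K1 (1.56 ± 0.10) belong to families with near-identical copies, so their own share of the reads is uncertain. Basal library 1 was the lowest of the 6 libraries in 42 of the 43 genes and basal library 3 in the other 1. Without basal library 1 the number higher was 34 and the median 0.47.

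Part of this list shares a DNA motif before its start sites, and the stretches of 3 of its called genes are printed to show where it lies. The 250 bases before the start were taken from RefSeq on GRCm38.p6 and searched on both strands for TTTCNNTTTC (N, any base), the core bound by interferon-activated factors, which may overlap other motifs. Cxcl10 is at chr5:92348890-92349139 on the minus strand, with the match beginning at -213. Ifit1 is at chr19:34640639-34640888 on the plus strand, with matches at -104 and -85. Rsad2 is at chr12:26456453-26456702 on the minus strand, with a match at -120. Each sequence reads 5′ to 3′ toward the start, with matches on either strand in capitals.
Cxcl10: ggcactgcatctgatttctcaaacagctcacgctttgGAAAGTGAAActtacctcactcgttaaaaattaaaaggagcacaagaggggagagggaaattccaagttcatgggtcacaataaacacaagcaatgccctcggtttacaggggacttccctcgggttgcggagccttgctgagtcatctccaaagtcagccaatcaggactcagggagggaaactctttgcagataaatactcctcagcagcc
Ifit1: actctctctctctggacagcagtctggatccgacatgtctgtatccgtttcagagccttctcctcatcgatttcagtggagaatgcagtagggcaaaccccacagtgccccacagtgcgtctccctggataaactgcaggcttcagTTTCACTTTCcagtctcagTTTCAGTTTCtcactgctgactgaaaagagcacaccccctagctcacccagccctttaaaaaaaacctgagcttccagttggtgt
Rsad2: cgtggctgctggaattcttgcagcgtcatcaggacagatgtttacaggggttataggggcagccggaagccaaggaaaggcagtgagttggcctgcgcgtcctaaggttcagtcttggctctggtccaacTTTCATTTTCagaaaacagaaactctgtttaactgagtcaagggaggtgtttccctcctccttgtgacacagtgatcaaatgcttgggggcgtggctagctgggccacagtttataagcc
In Cxcl10 the capitals read as the reverse complement of the motif, and in Ifit1 and Rsad2 they read forward.

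The motif was in 3.46% of the 27025 genes that have such a sequence in RefSeq and in 16 of 34 interferon-stimulated genes with one. Among tested genes with a sequence it was in 102 of 1616 higher genes (6.31%), 39 of 1494 lower genes (2.61%) and 195 of 7494 that missed the threshold (2.60%). It was in 45 of 202 genes higher by at least 0.5 (22.3%). A match is a description of the letters and not evidence of binding.

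Beyond that list, 16 of 27 genes (59.3%) of NF-kB and chemokines were higher and 3 (11.1%) lower (median 0.22), against 15.0% and 13.5% of all tested genes. The monocyte chemokines Ccl2 and Ccl7 each differed by 1.40 ± 0.12, the cytokine Lif by 1.20 ± 0.09, the prostaglandin synthase Ptgs2 by 0.71 ± 0.06 and Tnfaip2 by 0.56 ± 0.03. Among the 12 largest rises chosen by rule were also Fam110c (1.15 ± 0.05), the lipocalin Apod (1.12 ± 0.10) and Prl2c2 (1.12 ± 0.05), a prolactin family gene with near-identical copies.

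The amino acid response was higher in part. Of 43 genes of the Atf4 response 28 (65.1%) were higher and 0 lower, with a median of 0.23. Of 20 cytosolic tRNA synthetases 11 (55%) were higher and 0 lower, with a median of 0.12 (7 higher without deprived library 2). Over all tested genes 15.0% were higher and 13.5% lower. Chac1, which degrades glutathione, stood at 12.20, 12.34 and 12.39 in basal and 13.39, 13.40 and 13.35 in deprived libraries (1.07 ± 0.05, adjusted p = 8.69e-16). Other stress members of the list followed: Atf3 differed by 1.01 ± 0.09, Ppp1r15a, which reverses the translation block, by 0.79 ± 0.05, Ddit3 (CHOP) by 0.70 ± 0.06, the leucine sensor Sesn2 by 0.60 ± 0.06 and Ndrg1 by 0.59 ± 0.04. Atf4 itself stood at 13.50, 13.60 and 13.64 against 13.82, 13.87 and 13.84 (0.26 ± 0.04, adjusted p = 7.29e-06). Trib3, a pseudokinase induced by Atf4, stood at 12.17, 12.22 and 12.29 against 12.48, 12.52 and 12.55 (0.29 ± 0.05, adjusted p = 2.42e-05). The serine synthesis enzymes Psat1 (-0.04 ± 0.04, adjusted p = 0.477) and Phgdh (0.06 ± 0.04, adjusted p = 0.215) missed the threshold. The stress members from Chac1 to Ndrg1 were named for their small adjusted p, and Psat1 and Phgdh for missing the threshold. No split of the list by function is therefore read from them. Among synthetases Rars differed by 0.30 ± 0.04 and Aars by 0.24 ± 0.03.

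Chac1 and Atf3 hold the 8 bases TGATGCAA, a form of the amino acid response element to which Atf4 binds, and are printed for that reason. Chac1 is at chr2:119350992-119351241 on the plus strand, with the match at -193, and Atf3 at chr1:191183334-191183583 on the minus strand, with the match at -110. The source, build and direction are as above.
Chac1: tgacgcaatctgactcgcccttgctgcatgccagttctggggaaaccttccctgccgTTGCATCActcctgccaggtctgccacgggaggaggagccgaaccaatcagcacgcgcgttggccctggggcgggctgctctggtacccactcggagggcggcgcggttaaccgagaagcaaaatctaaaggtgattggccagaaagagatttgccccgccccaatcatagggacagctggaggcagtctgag
Atf3: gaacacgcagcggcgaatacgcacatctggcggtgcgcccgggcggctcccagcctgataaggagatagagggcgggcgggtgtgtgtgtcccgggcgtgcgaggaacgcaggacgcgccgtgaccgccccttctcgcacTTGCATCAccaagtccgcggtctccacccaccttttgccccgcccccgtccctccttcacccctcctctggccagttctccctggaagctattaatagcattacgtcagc
In both the capitals read as the reverse complement of the element.
It was in 0.918% of all 27025 genes and in 8 of 36 genes of the Atf4 list. Among tested genes with a sequence it was in 12 of 1616 higher genes (0.743%) and 7 of 1494 lower genes (0.469%). Of those that missed the threshold 47 of 7494 (0.627%) held it.

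Genes that handle methionine itself showed little difference as a group. Of 17 genes of the methionine cycle and SAM use, 3 were higher and 3 lower, with a median of -0.01, and 5 were higher without CRE library 3 at 4 h. Mat2a, the SAM synthetase whose transcript is known to be held high when SAM is low, overlapped between the groups, at 13.57, 13.62 and 13.60 against 13.63, 13.58 and 13.55 (-0.01 ± 0.15, adjusted p = 0.975). That standard error is from the spread over all 24 libraries and is wider than the spread of these 6. At 4 h under CRE Mat2a stood at 11.73, 11.70 and 10.85. Cth, which makes cysteine from cystathionine, was higher (0.26 ± 0.06, adjusted p = 0.000614), as was Mettl16, the methyltransferase that acts on the Mat2a transcript (0.18 ± 0.04, adjusted p = 0.00218). Adk, which removes the adenosine released from SAM use, was lower (-0.26 ± 0.04, adjusted p = 2.02e-05). Of 18 polyamine and salvage genes 6 were higher (3 without basal library 1 or without deprived library 1) and 3 lower, among them the spermine synthase Sms (-0.31 ± 0.04). One-carbon and serine genes gave 3 higher (1 without deprived library 3) and 2 lower of 18. Histone and DNA methylation enzymes gave 6 higher of 53 (3 without basal library 2). Of these enzymes 7 were lower (11 without CRE library 3 at 4 h), with Dnmt1, the maintenance DNA methyltransferase, at -0.26 ± 0.04. Over all tested genes 15.0% were higher and 13.5% lower. The methionine cycle, one-carbon and methylation lists lay near these shares, so no shift of these lists is read from the counts.

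Of 26 genes of cholesterol synthesis 17 were higher and 1 lower (median 0.22). Of 17 genes of fatty acid synthesis 2 were higher and 5 lower (median -0.04), with 1, 2 and 3 lower without basal library 1, deprived library 1 and deprived library 2, and 1 higher without basal library 3. The sterol sensor Insig1 differed by 0.77 ± 0.06, Msmo1 by 0.65 ± 0.06 and Fdps by 0.59 ± 0.04. Stress lists were mixed. Of 34 NRF2 targets 8 were higher and 6 lower: the heme oxygenase Hmox1 differed by 0.42 ± 0.05 and the transporter Abcc4 by 0.38 ± 0.04, while the glutathione transferase Gstm1 differed by -0.39 ± 0.05. Unfolded protein response genes gave 6 higher and 6 lower of 27, with Herpud1 at 0.38 ± 0.06 and Xbp1 at 0.25 ± 0.04. Heat shock genes gave 3 higher and 2 lower of 21, with 1 lower without basal library 2 or deprived library 1. Genes of hypoxia and glycolysis gave 5 higher and 2 lower of 31, and Pfkm stood at -0.45 ± 0.06. The 2 lower became 1 without basal library 2 or 3 or deprived library 2. Over all tested genes 15.0% were higher and 13.5% lower. The heat shock and hypoxia lists lay near or below these shares, so no shift of either list is read from the counts. The NRF2 and unfolded protein lists lay above both shares in the main comparison, without a lean to 1 side.

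Growth-related lists did not move together. Of 31 p53 targets 13 (41.9%) were higher and 3 (9.68%) lower (median 0.10), against 15.0% and 13.5% of all tested genes. The cell cycle inhibitor Cdkn1a (p21) differed by 0.86 ± 0.06, Gadd45a by 0.85 ± 0.05, Plk2 by 0.67 ± 0.05 and Mdm2, which degrades p53, by 0.38 ± 0.05. Of 53 cell cycle genes 3 (5.66%) were higher and 27 (50.9%) lower (median -0.16). Ccnd1, cyclin D1, stood at 12.98, 12.95 and 12.97 in basal and 12.50, 12.52 and 12.45 in deprived libraries (-0.47 ± 0.03, adjusted p = 3.57e-13). The mitotic kinesin Kif20a differed by -0.47 ± 0.06 and cyclin A2, Ccna2, by -0.30 ± 0.04, whereas Cdt1, which licenses replication, differed by 0.35 ± 0.04. Of 12 replication-dependent histones 7 were higher and 0 lower (median 0.39), and 2 of those tested were higher under the stricter filter on low values. These histone genes are a family of similar copies without the usual polyA tail, so their level in polyA-selected RNA and their identity are uncertain. H2bc4 differed by 0.66 ± 0.08.

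Transcripts of early growth factor response were mostly higher. Of 45 immediate early genes 27 (60%) were higher and 5 (11.1%) lower, with a median of 0.26, against 15.0% and 13.5% of all tested genes. Junb, an AP-1 subunit, stood at 11.48, 11.49 and 11.50 in basal and 12.45, 12.46 and 12.38 in deprived libraries (0.94 ± 0.05, adjusted p = 2.71e-16), and Egr1 at 14.24, 14.22 and 14.28 against 15.02, 14.98 and 14.94 (0.74 ± 0.04, adjusted p = 8.88e-15). Klf4 differed by 0.80 ± 0.06 and the MAP kinase phosphatases Dusp4 and Dusp5 by 0.72 ± 0.06 and 0.58 ± 0.05. Among the 5 lower members were Id3, an inhibitor of basic helix-loop-helix factors (-0.78 ± 0.10), and the matricellular gene Ccn2 (-0.47 ± 0.07). Of 49 ribosome biogenesis genes 15 were higher and 1 lower (median 0.08), 9 higher without basal library 1, with Nop58, a snoRNP core protein, at 0.20 ± 0.04 and Gnl3 at 0.25 ± 0.05. Ribosomal proteins gave 1 higher and 10 lower of 77 (median -0.04) and nuclear genes of oxidative phosphorylation 1 higher and 15 lower of 75 (median -0.03), near or below the shares over all genes in each direction but for the 15. Without basal library 2, deprived library 1 or deprived library 3 the 15 became 6, 8 and 9. Without basal library 2 or 3 or deprived library 1 or 3 the 10 became 5 or 6, and without CRE library 3 at 4 h 16. Of 13 mitochondrially encoded genes limma called 0 in either direction (median -0.12), as did edgeR and DESeq2, with 0 at an unadjusted p under 0.05, and 5 were lower without CRE library 3 at 4 h. Clock genes gave 9 higher and 2 lower of 19 (median 0.12; 0 lower without deprived library 3 and 1 without basal library 2 or deprived library 2), with Bhlhe40 at 0.85 ± 0.06 and Cry1 at 0.39 ± 0.06. In the lists with 5 or more tested members, a count of 2 or fewer moved by at most 2 as each library of the comparison, or CRE library 3 at 4 h, was left out, but for the mitochondrially encoded genes.

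**Figure D2:**
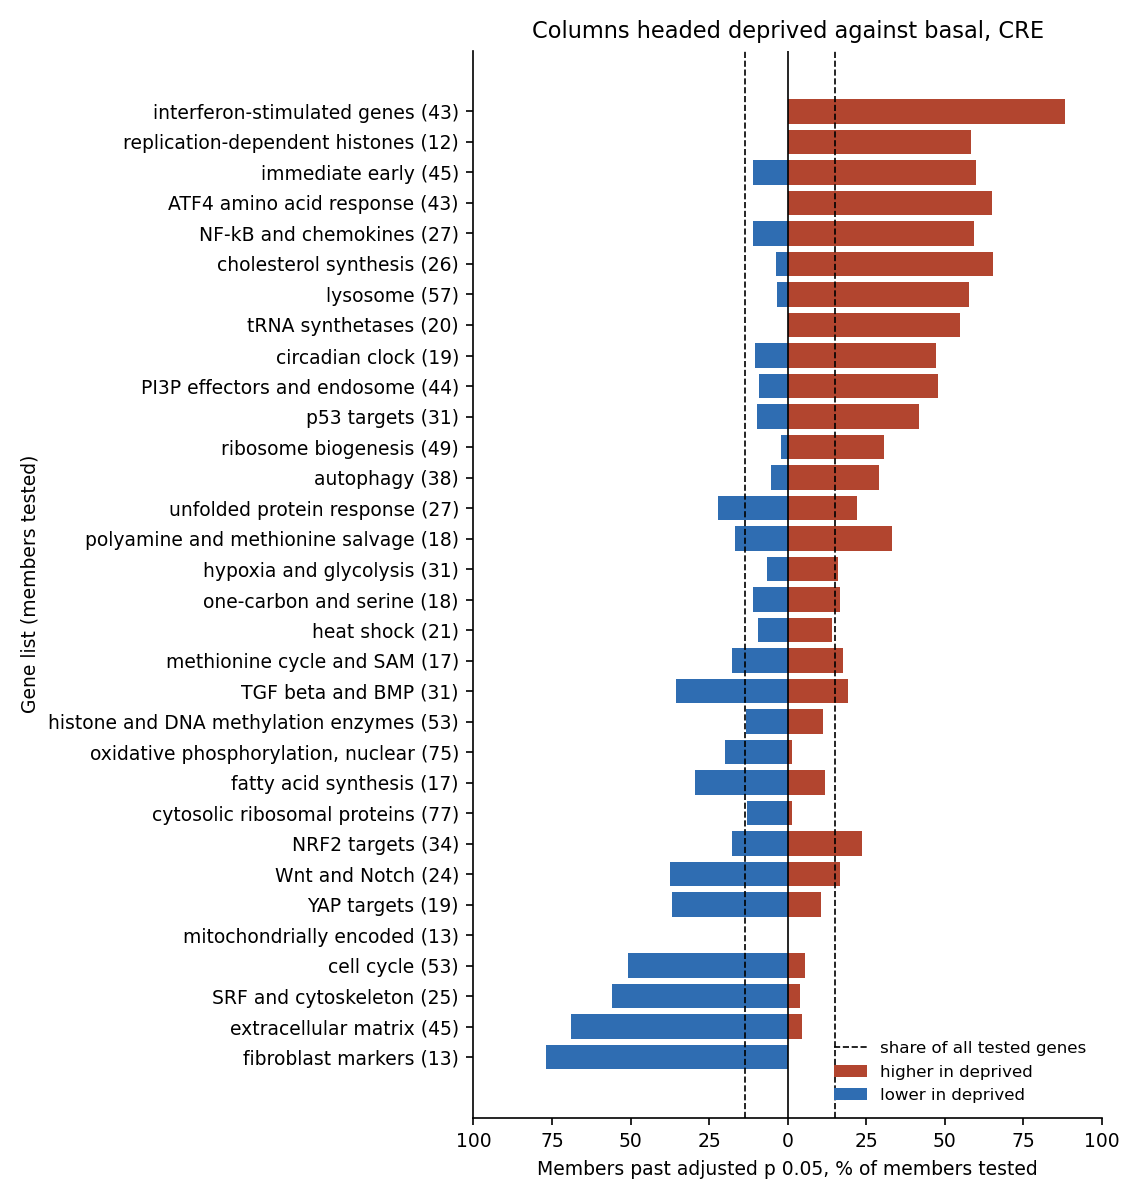
Share of each list's tested members (number in parentheses) past an adjusted p of 0.05 under CRE, higher in the deprived columns to the right and lower to the left, with dashed lines at the shares over all tested genes, 15.0 and 13.5%. Interferon-stimulated genes reach 38 of 43 on the right, and fibroblast markers 10 of 13 on the left. Some lists share genes.

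The falls were led by the connective tissue program. Of 45 genes of the extracellular matrix 2 (4.44%) were higher and 31 (68.9%) lower, with a median of -0.37. Over all tested genes the shares were 15.0% and 13.5%. The fibrillar collagen gene Col3a1 stood at 15.16, 15.01 and 14.99 in basal and 14.01, 14.03 and 14.02 in deprived libraries (-1.03 ± 0.06, adjusted p = 3.44e-12). Col11a1 differed by -1.18 ± 0.06, Col1a1 by -0.63 ± 0.05, Col5a2 by -0.57 ± 0.04 and Sparc, a collagen-binding protein, by -0.51 ± 0.03. In the other direction Mmp13, a collagenase, differed by 1.27 ± 0.11 (adjusted p = 9.31e-11). The other matrix genes among the 12 largest falls were the protease Adamts1 (-0.996 ± 0.06), the integrin ligand Npnt (-0.95 ± 0.04) and Sned1 (-0.87 ± 0.18). The collagens named here were therefore lower and the collagenase Mmp13 higher in the same columns, while the protease Adamts1 was lower.

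Of all the falls chosen by rule H19 was the largest. This imprinted non-coding RNA (chromosome 7, 142575530 to 142578146) stood at 10.07, 10.01 and 10.10 in basal and 8.21, 8.35 and 8.49 in deprived libraries (-1.71 ± 0.07, adjusted p = 3.60e-17). Meg3, another imprinted non-coding RNA, differed by -0.91 ± 0.29 (adjusted p = 0.0286) and missed the threshold without any one of basal libraries 1 to 3 and deprived libraries 2 and 3. Dkk2, a secreted Wnt modulator, stood at 11.68, 11.75 and 11.62 against 10.71, 10.66 and 10.61 (-1.03 ± 0.05, adjusted p = 4.76e-17). Angptl7 (-1.05 ± 0.05), Lrrn3 (-0.98 ± 0.06), the cadherin Fat4 (-0.83 ± 0.25, adjusted p = 0.0193) and the stromal surface protein Cd248 (-0.79 ± 0.10) completed the set. Fat4 missed the threshold without basal library 1 or 3 or deprived library 3. Of 24 Wnt and Notch genes 4 (16.7%) were higher and 9 (37.5%) lower (median -0.07), against 15.0% and 13.5% of all tested genes. The 4 became 1 or 2 without any one of basal libraries 1 to 3 and deprived libraries 1 and 2. No rise of the list is read from them. The receptor Fzd2 was at -0.41 ± 0.06 and the Notch target Hes1 at 0.57 ± 0.09.

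Genes of the contractile skeleton were lower as well. Of 25 targets of SRF and cytoskeletal genes 1 (4%) was higher and 14 (56%) lower (median -0.21), against 15.0% and 13.5% of all tested genes. The actins Actb and Acta2 were at -0.38 ± 0.04 and -0.40 ± 0.04. YAP targets gave 2 higher (10.5%) and 7 lower (36.8%) of 19, with a median of -0.11. The 2 became 1 without basal library 2 or deprived library 2 or 3. Without deprived library 3 the 7 became 4, and Ankrd1, at -0.41 ± 0.11, missed the threshold. Genes of TGF beta and BMP signalling gave 6 higher (19.4%) and 11 lower (35.5%) of 31, with a median of -0.02. The 6 lay near the share over all genes, so no rise of that list is read. The latent TGF beta binder Ltbp1 was at -0.38 ± 0.03 and the BMP antagonist Grem1 at 0.43 ± 0.05.

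The labelled cell type was checked against markers. None of the 15 fibroblast markers was at 0 counts in all libraries of either group. Thy1 had only 0 or 1 count per library, however, and Fap 4 to 10. Of the 13 tested 0 were higher (1 by edgeR) and 10 (76.9%) lower, with a median of -0.47, against 15.0% and 13.5% of all tested genes. Among the 10 were the intermediate filament Vim (-0.47 ± 0.03) and the receptor Pdgfra (-0.40 ± 0.05). Collagen genes such as Col3a1 are also in the matrix list, so this count is not separate from that of the matrix. The summed level of the 15 was 16347 to 18113 CPM (counts scaled to a common total) in basal and 11232 to 12540 in deprived libraries. In bulk RNA fewer cells of a type and less RNA per cell cannot be told apart. Markers of other cell types were scarce: the summed raw counts per library were 30 to 46 in basal and 62 to 67 in deprived libraries for 8 endothelial markers, 167 to 180 and 215 to 225 for 7 of macrophages and blood, 11 to 20 and 22 to 29 for 11 of epithelium, 82 to 97 and 93 to 128 for 10 of muscle, and 185 to 220 and 169 to 201 for 9 neural markers. The blood marker Tyrobp, the epithelial markers Epcam, Krt18, Cldn3 and Cldn4 and the muscle markers Myf5 and Ckm were at 0 in all 6 libraries. Of the few tested, the endothelial Vwf (0.52 ± 0.14, adjusted p = 0.00414) and the macrophage receptor Csf1r (0.37 ± 0.13, adjusted p = 0.0237) were higher. Csf1r missed the threshold without basal library 1 or 2 or deprived library 1 or 3. No epithelial marker was tested, and none of 3 muscle and 2 neural markers passed. The 9 fat and cartilage markers summed to 771 to 822 and 1096 to 1184 counts, and of 6 tested only the cartilage factor Sox9 passed (0.94 ± 0.07, adjusted p = 2.18e-12). The part of these markers in the results was not tested.

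The same subtraction under GFP shares no library with the one under CRE and was set beside it. There 3290 genes (23.6%) passed, 1397 (10.0%) higher and 1893 (13.6%) lower. Between the sets 1880 genes passed in both, 47.4% of those called under CRE and 57.1% of those called under GFP, and 1829 of them had the same direction. Across genes, which are not independent replicates, Pearson's r of the differences was 0.667 and Spearman's rho 0.518. The difference between the CRE and GFP subtractions itself passed for 665 genes (4.78%), 450 (3.23%) positive and 215 (1.55%) negative. It passed for 399 without GFP basal library 3, 360 and 421 without GFP deprived library 1 and 2, 387 without CRE basal library 1, 424 and 436 without CRE deprived library 2 and 3, and 1080 without CRE library 3 at 4 h. Read by heading, these 665 are genes whose response to deprivation differed between knockout and wild type. Read by column order, they are genes whose knockout minus wild type difference was not the same at 1 h of methionine and in basal medium.

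The immediate early genes held the most such differences among the lists. Of the 45, 26 had a positive CRE minus GFP difference and 0 a negative one, with a median of 0.32, and 23 to 29 were positive in every alternative run. Over all tested genes 3.23% were positive and 1.55% negative. Under GFP itself 6 were higher and 15 lower, where 10.0% of all tested genes were higher and 13.6% lower. Junb differed by 0.94 ± 0.05 under CRE and 0.12 under GFP (difference 0.82, adjusted p = 1.13e-09), Egr1 by 0.74 and 0.04 (0.70), Dusp5 by 0.58 and -0.15 (0.73), Ier2 by 0.52 and -0.12 (0.64) and Bhlhe40 by 0.85 and 0.20 (0.65). Ccn1, a YAP and SRF target, stood at -0.11 ± 0.07 under CRE (adjusted p = 0.279) and -0.89 under GFP (difference 0.78, adjusted p = 0.000101). Ribosome biogenesis followed, with 15 of 49 positive and 0 negative (Nop58 0.41), where GFP gave 0 higher and 20 lower. The 15 became 7 without CRE basal library 1, 9 without GFP basal library 3, 10 without CRE deprived library 2 and 8 without GFP deprived library 1.

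Negative differences gathered among oxidative stress and Atf4 genes. Of 34 NRF2 targets 11 were negative and 0 positive, and of 43 genes of the Atf4 list 11 were negative and 2 positive. Over all tested genes 1.55% were negative and 3.23% positive, so nothing is read from the 2 positive. The cystine transporter Slc7a11 stood at 10.62, 10.62 and 10.72 in basal and 11.18, 11.31 and 11.15 in deprived CRE libraries, a difference of 0.56 ± 0.13 against 1.70 under GFP (CRE minus GFP -1.14, adjusted p = 0.00119). Trib3 gave 0.29 and 1.00 (-0.71, adjusted p = 5.56e-08) and Hmox1 0.42 and 1.01 (-0.59). Soat2, which esterifies cholesterol (-0.78), the inositol transporter Slc5a3 (-0.71), Scara5 (-0.65) and Aldh3a1 (-0.64) were the other large ones. Sqstm1, itself an NRF2 target, gave 0.47 and 0.69 (-0.22, adjusted p = 0.00331).

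Interferon-stimulated genes had 0 positive and 0 negative CRE minus GFP differences by limma (2 and 8 at an unadjusted p under 0.05), against 0 and 0 by edgeR and 0 and 1 by DESeq2. Under GFP 42 of 43 were higher and 0 lower, with a median of 0.94, against 10.0% and 13.6% of all tested genes. Cxcl10 differed by 2.54 and 2.01, Ccl5 by 2.81 and 2.67, and Oasl1 by 2.32 and 2.01 under CRE and GFP. The list as a whole leaned the other way, with a median CRE minus GFP difference of -0.24: Oas3 differed by 1.43 and 1.81, H2-K1 by 1.56 and 1.80 and Zbp1 by 1.29 and 1.41. A difference that misses the threshold does not show that the groups act alike. Matrix genes gave 3 higher and 17 lower of 45 under GFP, and 0 positive and 3 negative differences (2 to 6 as single libraries were left out), namely Col11a1 (-0.51), Col3a1 (-0.40) and Sparc (-0.17). Col1a1 fell by 0.63 and 0.45 and H19 by 1.71 and 1.49. Lysosomal genes gave 47 higher and 0 lower of 57 under GFP. Their CRE minus GFP difference was negative in 5, a count that ran from 1 to 10 as single libraries were left out. Over all tested genes 3.23% of such differences were positive and 1.55% negative.

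**Figure D3:**
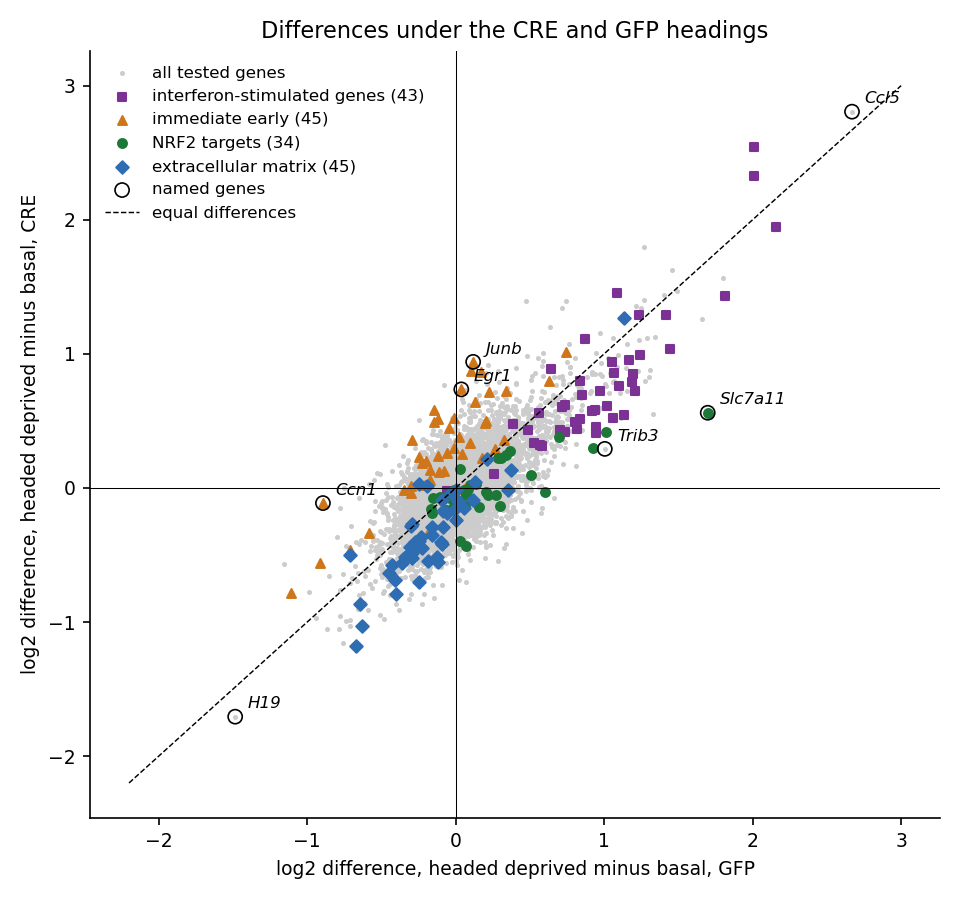
Log2 difference, deprived minus basal, of each tested gene under GFP (horizontal) and under CRE (vertical), with 4 lists in colour, 7 named genes ringed and a dashed line of equal differences. Junb and Egr1 lie near 0 on the GFP axis (0.12 and 0.04) and above 0.7 on the CRE axis, Slc7a11 and Trib3 lie under the line, and Ccl5 and H19 lie near it.

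The 4 h and 1 h columns allowed 2 more subtractions that share no library with the main one. Under CRE, 4 h minus 1 h passed for 3539 genes (25.4%), 1866 (13.4%) higher and 1673 (12%) lower, and 2290 of them passed in the main comparison too, 2259 in the same direction. Pearson's r across genes was 0.758. Under GFP it passed for 5105 genes (36.7%), 2489 (17.9%) higher and 2616 (18.8%) lower, with 2808 shared, 2798 of them in the same direction and an r of 0.774. Read by heading, deprivation and the step from 1 to 4 h of methionine thus gave differences of like sign in 2798 of 2808 shared genes, with the main comparison in knockout and the other in wild type cells. Read by column order, both are knockout minus wild type, at 1 h of methionine and after 4 h of deprivation.

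The lists named next leaned to the same side in all 4 subtractions. Interferon-stimulated genes gave 42 higher and 0 lower in 4 h minus 1 h under CRE and 41 higher and 1 lower under GFP. Lysosomal genes gave 41 higher and 1 lower under CRE and 31 and 3 under GFP, and cholesterol genes 23 and 0, and 21 and 2. Matrix genes gave 2 higher and 25 lower under CRE and 3 and 27 under GFP, and cell cycle genes 3 and 24, and 4 and 23. Not so for immediate early genes, with 14 higher and 15 lower in 4 h minus 1 h under CRE (16 and 10 without CRE library 3 at 4 h, which stands apart) and 26 and 4 under GFP, and in size for genes of oxidative phosphorylation, with 53 of 75 lower in 4 h minus 1 h under GFP against 15 in the main comparison. Ribosomal proteins gave 61 of 77 lower there, against 10. The main CRE subtraction differed from the 4 h minus 1 h CRE subtraction at 211 genes (1.52%), 138 (0.992%) positive and 73 (0.525%) negative. The 211 became 139 without CRE basal library 3 and 137 without CRE library 1 or 2 at 1 h. Of these, 19 of the 45 immediate early genes were positive and 0 negative. Of 26 cholesterol genes 11 were negative and 0 positive.

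**Figure D4:**
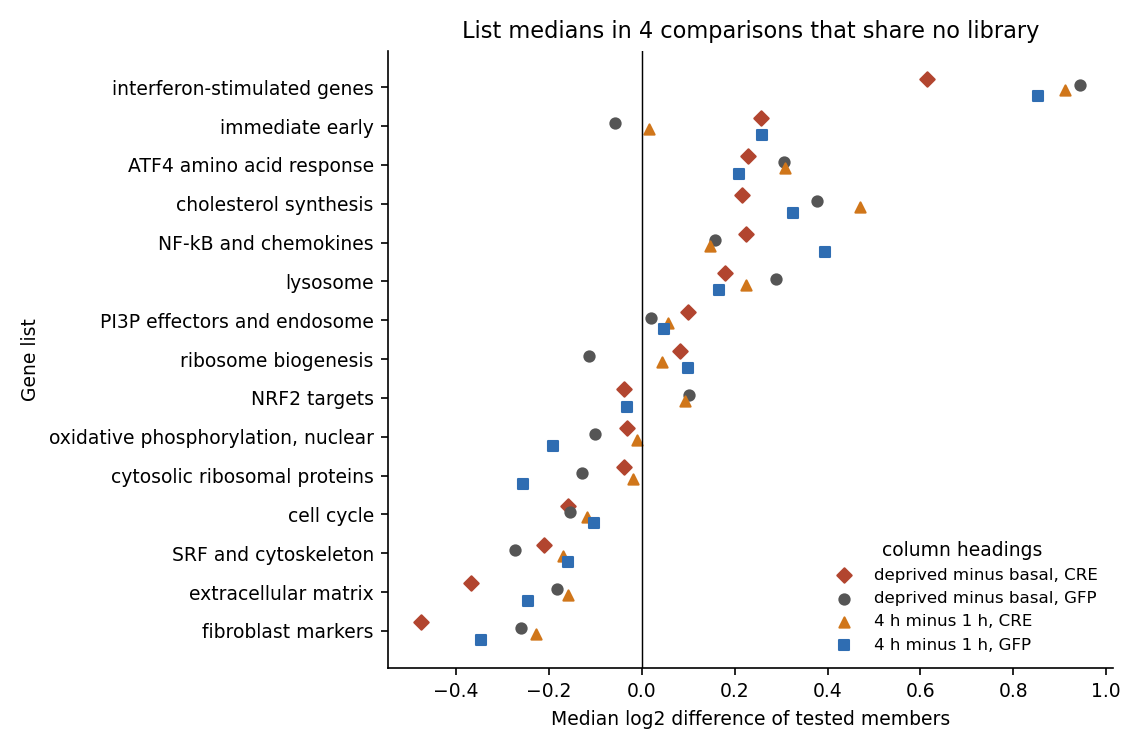
Median log2 difference of the tested members of 15 lists (horizontal) in 4 subtractions between column headings that share no library. Interferon-stimulated genes have medians of 0.62 to 0.94 in all 4, and immediate early genes stand at 0.26, -0.06, 0.02 and 0.26 in the order of the legend.

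Levels across the 8 headings show what the readings would ask of single genes. Mat2a averaged 13.60 and 13.59 under the basal and deprived CRE headings, 13.89 and 13.77 under 1 h and 4 h with GFP, 12.34 and 12.17 under basal and deprived with GFP, and 11.80 and 11.43 under 1 h and 4 h with CRE. The last mean holds libraries at 11.73, 11.70 and 10.85, the lowest being library 3, which stands apart. Its 4 highest groups were neighbours in the order of columns. Read by heading, Mat2a was high in basal and deprived knockout cells and in wild type cells given methionine again. It was then low in basal and deprived wild type cells and in knockout cells given methionine again. Read by column order, the 4 high groups are both genotypes after 4 h of deprivation and after 1 h of methionine, and the 4 low groups are both genotypes in basal medium and after 4 h of methionine.

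Trib3 took the same shape, at 8.73, 9.73, 12.39 and 12.57 for basal, deprived, 1 h and 4 h under GFP and 12.23, 12.52, 10.63 and 11.23 under CRE. Junb averaged 10.33, 10.45, 12.27 and 12.93 under GFP and 11.49, 12.43, 9.96 and 10.38 under CRE, so its deprived minus basal difference under CRE lay between columns that were both above the GFP pair. Oasl1 alternated instead, at 6.31, 8.32, 7.10 and 9.52 under GFP and 7.16, 9.48, 7.08 and 9.20 under CRE. H19 alternated in the other direction, at 10.80, 9.32, 10.04 and 8.41 under GFP and 10.06, 8.35, 10.68 and 8.97 under CRE. Col3a1 did so as well, at 15.61, 14.98, 15.01 and 13.92 under GFP and 15.05, 14.02, 15.30 and 14.49 under CRE. For the interferon gene and both falling genes each deprived heading stood apart from its basal heading, and each 4 h heading from its 1 h heading, in 1 direction. By heading, the basal and 1 h means thus lay on 1 side and the deprived and 4 h means on the other, although 1 h and 4 h both had methionine again. By column order the alternation follows the genotype.

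**Figure D5:**
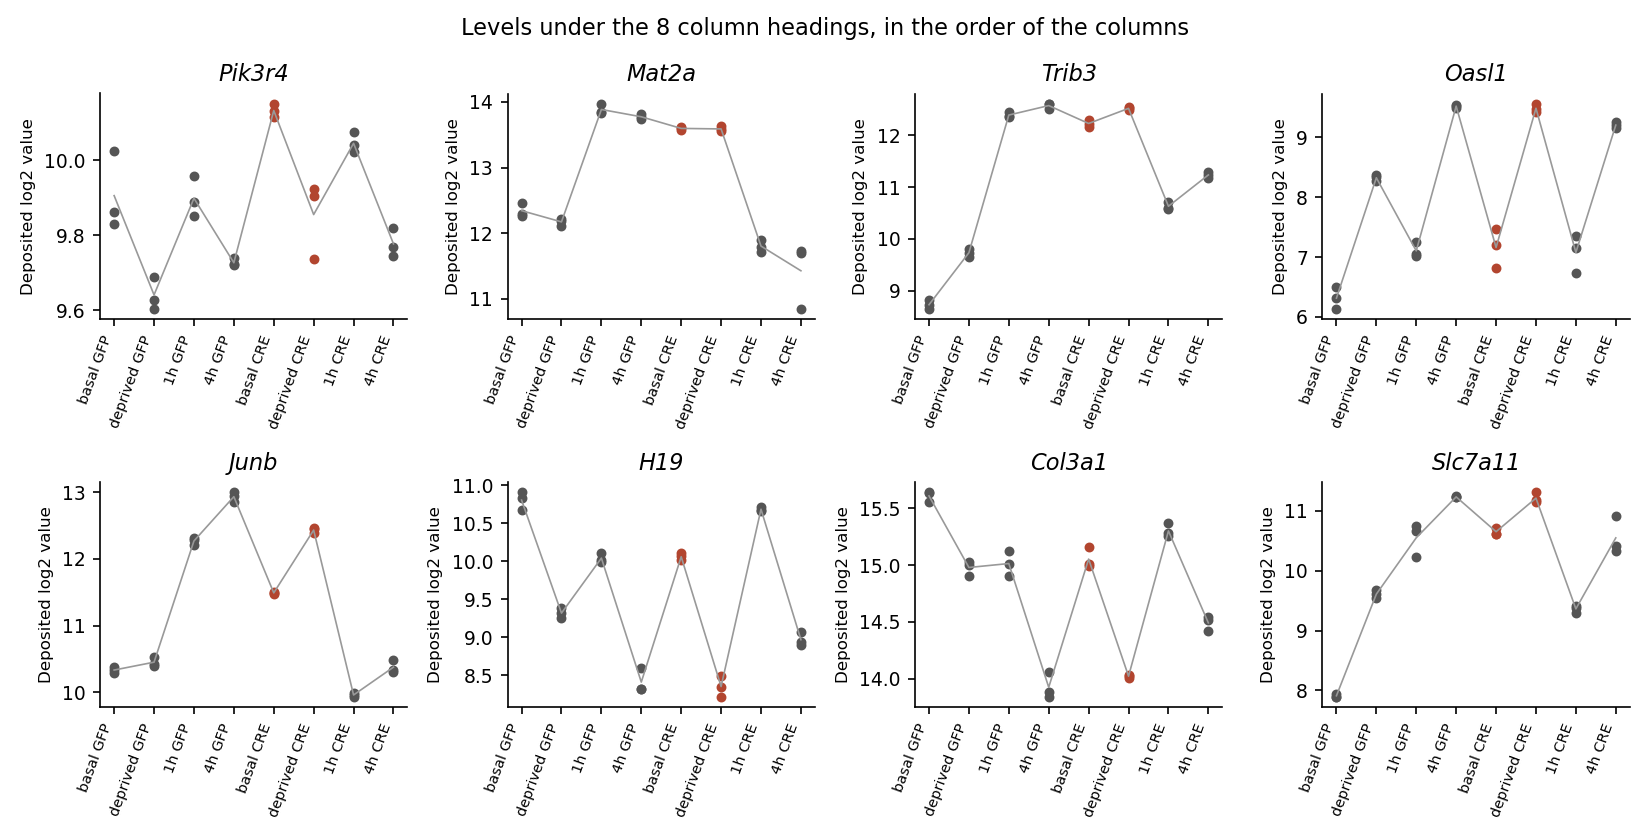
Deposited log2 value of 8 genes in the 24 fibroblast libraries (points) under the 8 column headings in the order of the columns, with a line through the group means and the 6 libraries of the main comparison in red. Mat2a and Trib3 are high in the 4 middle groups, while Oasl1 and H19 alternate from heading to heading.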

How the data were processed

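PolyA RNA of 24 fibroblast libraries was sequenced as stranded paired reads on DNBSEQ, per the labels' protocols. The deposited values are log2 after a variance-stabilizing transformation that put the 24 libraries on 1 scale. The submitters' processing notes list STAR 2.7.10b, featureCounts, DESeq2, limma and the build mm10, and other settings are not given in the sources used here. Undoing the transformation gave whole counts (within 0.01) for 100% of values, which were used for depth, for cell type markers and for alternatives. The deposited liver counts were not analysed here.

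The columns were matched to groups by heading, and 0 columns were left out. The log2 values were tested with limma 3.58.1 in R 4.3.3 (1 mean per group over 24 libraries, mean-variance trend, robust moderation) for 13914 genes whose mean lay at least 1 above the lowest value of 4.17. Adjusted p-values are Benjamini-Hochberg values across these genes. With 3 against 3 libraries an exact permutation test of 1 value cannot go below 0.1, so none was used. A promoter is the 250 bases before a gene's start in RefSeq.

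The comparison, its 39 gene lists and the tests were chosen with earlier results of these data known. Some lists share genes, such as Col3a1 in the matrix and fibroblast lists, so their counts are not independent. Genes were named by a rule: 7 genes whatever their p (Pik3r4, Pik3c3, Becn1, Mat2a, Atf4, Sqstm1 and Trib3), up to 6 called members of each list with the smallest adjusted p and 3 that missed it, all members of lists of 25 genes or fewer that the text turns on, the 12 largest rises and 12 largest falls without overlap whose higher mean reached the median of tested genes, and the 6 largest CRE minus GFP differences in each direction; not every one is printed. Symbols of the form Gm plus digits or ending in Rik were left out. Alternatives were equal library medians, no filter, a stricter filter (mean at least 2 above the lowest value), fits with no trend, with a replicate block and with only the groups compared, edgeR 4.0.16 with and without a count filter, DESeq2 1.42.0, and each library left out in turn. Leaving out CRE library 3 at 4 h in comparisons that do not hold it was chosen after seeing the data. The steps were tested on simulated data of 13869 genes, where limma recovered 62 of 100 log2 changes of 0.3 and 98 of 100 of 1, with 5 false calls. Far fewer genes were changed there than were called here, which makes the adjusted threshold stricter, so these rates need not hold for the data. In that simulation a difference of 0.3 could miss the threshold.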

Additional observations from a re-analysis of the deposited data

Results flagged for a closer look

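The following results were listed because the difference between groups under the same contrast passed its own test in limma. The subtraction of basal from deprived differed between the CRE and GFP headings for 665 genes, and the CRE subtraction differed from 4 h minus 1 h under CRE for 211 genes. Among named genes the CRE minus GFP difference was positive for the chemokine Ccl7 (0.92) and the cytokine Lif (0.56), whose rises under CRE were therefore larger than under GFP, and for Ptgs2 (0.35). The matricellular gene Ccn1 was at 0.78. Other genes of early growth response were at 0.82 (Junb), 0.73 (Dusp5), 0.70 (Egr1), 0.65 (Bhlhe40), 0.64 (Ier2) and 0.38 (Dusp4). The p53 targets Plk2, Cdkn1a and Mdm2 were at 0.62, 0.32 and 0.29. The ESCRT subunit Vps37b was at 0.47, Xbp1 at 0.39, Ppp1r15a at 0.38 and Ndrg1 at 0.24. The ribosome biogenesis genes Nop58 and Gnl3 were at 0.41 and 0.26, and Mettl16, Rars and Cdt1 each at 0.24.

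Negative differences were found for Slc7a11 (-1.14), Soat2 (-0.78), Slc5a3 (-0.71), Trib3 (-0.71), Scara5 (-0.65), Aldh3a1 (-0.64) and Hmox1 (-0.59). The collagens Col11a1 and Col3a1 were at -0.51 and -0.40, with Sparc at -0.17, Lrrn3 at -0.50, Gstm1 at -0.42, Pfkm at -0.40, Dkk2 at -0.32 and Abcc4 at -0.31. The PI3P reader Wipi1 was at -0.29, Fzd2 at -0.27, Pdgfra at -0.26, the kinase subunit Pik3c3 at -0.23, Sqstm1 at -0.22 and Aars at -0.17. Read by heading these differences set knockout against wild type cells in their response to deprivation, and read by column order they set knockout minus wild type at 1 h of methionine against basal medium.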

How the results depend on the processing

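The main count of 3963 genes stayed within 1.5 times under every alternative run: 3965 with equal library medians, 3370 without the filter, 3838 with the stricter filter, 3783 without the trend, 4583 with only the groups compared, 4055 and 3777 with edgeR with and without a count filter, 3575 with DESeq2, and 3099 to 4467 as single libraries were left out. With the replicate number as a block it was 4127. Deviations of same-numbered libraries of the 2 groups correlated at 0.067, -0.008 and 0.056, against -0.098 to 0.048 for different numbers. Under GFP the same-numbered values were 0.092, 0.025 and 0.153, against -0.160 to 0.082. So few correlations cannot show whether the numbers pair the libraries. The higher genes ran from 1587 to 2295 and the lower genes from 1512 to 2172 as single libraries were left out. The count under GFP ran from 2599 to 3802, and the 4 h minus 1 h counts from 2771 to 3570 under CRE and from 4178 to 5678 under GFP. With only the groups compared the 4 h minus 1 h count under CRE was 2217, and the cause was not tested. The 665 CRE minus GFP differences became 419 without the filter, 1109 with only the groups compared, 909 with the replicate block and 360 to 1080 as single libraries were left out; the cause was not tested. The 211 differences from 4 h minus 1 h became 137 to 240 as libraries were left out. Of the 115 called genes that the text names, 4 lost the call under some alternative, and of 1981 values of named genes under alternatives 1955 kept direction and side of the threshold. Pik3c3 passed with equal medians (-0.128, adjusted p = 0.0464) and without basal library 2, and Oas2 under 5 alternatives, DESeq2 among them. Mat2a ran from -0.029 to 0.01 as libraries were left out, changing sign without basal library 2 (0.002) and without deprived library 3 (0.01), so no direction is read from it. Depth was even across the libraries, and 3 libraries a group from 1 line limit what the tests cover.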
